A study of Mus musculus with 2 samples.

Results

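Histone genes were followed in RNA from the apex of embryonic mouse hearts. They were taken by name from the deposited table: every symbol that starts with Hist, a cluster number and h, or with H2af, H3f3 or H1f. This gave 73 of 29383 symbols and 79 of 29595 gene models, since some symbols have 2 rows. Of the symbols, 61 are clustered, replication-dependent histone genes (64 models) and 12 are variant genes (12 models); the remaining 3 models carry a histone symbol but lie on another gene, and they are described apart. The study has 2 libraries, each 1 pool of the apex of 8 hearts at stage E12.5. The heterozygous control (Nkx2-5cre, Ezh2f/+) carries 1 floxed copy of Ezh2 and the mutant (Nkx2-5cre, Ezh2f/f) carries 2, and the Cre recombinase that both groups carry is under Nkx2-5, which is active in the heart lineage and not in every cell of the tissue. With 1 library per genotype there was no replicate, so no test of genotype was possible, and every interval below is a 95% interval of counting error only.

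Histones are the proteins around which DNA is wound: 2 copies each of H2A, H2B, H3 and H4 form the core, and H1 binds the linker DNA. The clustered genes have no introns as a rule, are transcribed mainly in S phase, and give messenger RNAs that end in a conserved stem-loop in place of a poly(A) tail. The variant genes stand alone in the genome, are expressed through the cell cycle and into differentiation, and mostly give polyadenylated messages. EZH2, encoded by the floxed gene, is an enzyme that methylates histone H3, so the histone genes encode its substrate.

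The 3′ stem-loop is shown for 4 clustered genes and 1 variant gene because it marks the class, with the stem-loop in capitals and the 13 bases before it in lower case (GENCODE M21 transcripts, written as DNA).
Hist1h2ag: gatcgccaacaaaGGCTCTTTTCAGAGCC
Hist1h1c: taacaatccaaaaGGCTCTTTTCAGAGCC
Hist3h2ba: cccccaacccaaaGGCTCTTTTCAGAGCC
H2afx: acacctccacaaaGGCCCTTTTAAGGGCC
Hist1h2ao: gaaaaaaaaaaaaGGCTCTTTTCAGAGCC
The consensus of the histone stem-loop was found in the longest coding transcript of 36 of 60 clustered genes with an annotated one, against 0.201% of all 21877 protein-coding genes. A transcript model that stops at the stop codon cannot hold it. H2afx was the 1 variant gene of 12 with the motif. In Hist1h2ao the bases just before the stem-loop are a run of 12 A, which the other 4 sequences lack; a run of at least 12 A occurred anywhere in the transcript of 8.50% of protein-coding genes and, among the clustered genes, in Hist1h2ao and Hist1h2ac.

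Promoter stretches of 4 genes are shown, each the 250 bases before the start of the gene in RefSeq, because the results turn on these genes. Capitals mark 5 motifs searched on both strands of these 250 bases: the octamer ATTTGCAT, known from H2B promoters, the CCAAT box (CCAAT), the TATA box (TATAAA), an E2F site (TTTCGCGC) and the H1 box (AAACACA).
Hist1h2bj (GRCm38.p6, chr13:22042948-22043197, plus strand): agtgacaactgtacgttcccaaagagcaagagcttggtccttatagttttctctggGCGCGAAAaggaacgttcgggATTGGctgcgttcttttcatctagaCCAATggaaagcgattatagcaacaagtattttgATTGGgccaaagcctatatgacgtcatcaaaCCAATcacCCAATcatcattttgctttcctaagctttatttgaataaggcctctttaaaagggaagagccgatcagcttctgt
Hist3h2ba (GRCm38.p6, chr11:58948661-58948910, plus strand): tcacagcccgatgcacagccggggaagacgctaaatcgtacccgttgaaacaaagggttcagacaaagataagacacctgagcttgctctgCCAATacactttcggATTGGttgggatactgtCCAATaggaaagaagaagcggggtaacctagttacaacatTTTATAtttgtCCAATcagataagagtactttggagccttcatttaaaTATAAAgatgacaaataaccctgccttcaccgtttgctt
H3f3a (GRCm38.p6, chr1:180813606-180813855, minus strand): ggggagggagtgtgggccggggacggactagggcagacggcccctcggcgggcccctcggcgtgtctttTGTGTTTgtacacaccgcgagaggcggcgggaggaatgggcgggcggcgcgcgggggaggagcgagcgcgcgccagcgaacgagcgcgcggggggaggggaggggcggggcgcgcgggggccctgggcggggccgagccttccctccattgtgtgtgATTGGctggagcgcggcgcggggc
H3f3b (GRCm38.p6, chr11:116024505-116024754, minus strand): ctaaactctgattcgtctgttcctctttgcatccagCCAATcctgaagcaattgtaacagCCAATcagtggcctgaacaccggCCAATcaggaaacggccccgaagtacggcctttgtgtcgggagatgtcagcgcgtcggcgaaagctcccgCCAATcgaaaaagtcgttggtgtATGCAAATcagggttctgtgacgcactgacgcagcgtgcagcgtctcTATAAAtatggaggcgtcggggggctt
The stretch before Hist1h2bj is also the stretch before its neighbour Hist1h2ag read on the other strand, with 248 of 250 bases in common. Promoters were matched for 66 of the 73 symbols, and the counts below are over the same 250 bases before each start. The CCAAT box stood in all 15 H2A, 14 H2B and 6 H1 promoters and in 8 of 9 H3 promoters. It stood in 3 of 11 H4 promoters, against 33.8% of all 32851 promoters. The octamer stood in 7 of the 15 H2A and 6 of the 14 H2B promoters (1.60% of all promoters), and in none of the 6 H1, 9 H3 and 11 H4 promoters. The E2F letters stood in 3 H2A and 4 H2B promoters (0.256% of all promoters). Head-to-head H2A and H2B neighbours share bases, so the same letters can count in both classes, and these counts are not independent. The H1 box stood in 5 of the 6 H1 promoters (6.25% of all promoters). A match describes these letters only.

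Depth was 13944617 reads for the heterozygous pool and 14122579 for the mutant pool. Counts were scaled by a trimmed mean of log ratios (TMM) and are given as scaled CPM, the reads of a gene per 1000000 reads of its library; the log2 ratio is of mutant over heterozygote with 1 CPM added to each. Ezh2, the targeted gene, had 493 reads against 319 in the mutant (ratio 0.601, 0.521 to 0.694), a value over the whole gene and not over the floxed exons. The 12 cardiomyocyte markers, Tnnt2, Myh7 and Nkx2-5 among them, were all above 1 CPM, 6 of them with log2 ratios above 0 and 6 below, and they summed to 55705 and 55992 CPM. The summed CPM of blood cell markers were lower in the mutant. The 8 erythroid markers that were matched, globins among them, summed to 13602 against 9200 CPM (7 of 8 below 0 in log2 ratio). The 7 leukocyte markers were mixed and summed to 56.2 against 41.7 CPM, with 5 of 7 below 0. Of their intervals 3 lay below a ratio of 1 and 1, that of Cd68, above. Over all gene models at 1 CPM, 48.8% were above 0. Summed ratios were also below 1 for endothelial and endocardial markers (0.960, 0.936 to 0.983) and smooth muscle and pericyte markers (0.872, 0.853 to 0.891). Those of epicardial (1.02, 0.971 to 1.07) and mesenchymal markers (1.02, 0.998 to 1.05) had intervals that held 1. The marker genes at least 2-fold lower were the globin gene Hbb-b1 and the pericyte gene Rgs5. Red cell precursors at this stage divide and express histone genes too, and the part of these cells in the values below was not tested. In bulk tissue, fewer cells of a type and less RNA per cell cannot be told apart.

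Histone genes as a group were near equal in the 2 libraries after TMM scaling. All 76 models together took 39470 reads (heterozygote) and 43626 reads (mutant). The scaled ratio of these sums was 1.03 (1.01 to 1.04), and 1.09 under total-count scaling. Of these models, 52 reached 1 CPM in a library and 0 differed by 2-fold or more on the scale with 1 CPM added, which understates the change of low genes. With 0.1 CPM added, 2 of them (Hist1h4k and Hist1h2bp) were higher by that much and 1 (Hist1h1d) lower, each with at most 24 reads in either library. Among all 16280 gene models at this floor and with 1 CPM added, 0.608% were 2-fold or more higher in the mutant, and 0.178% were lower by that much. The counting interval lay above a ratio of 1 for 9 of the 52 models and below it for 4, against 17.3% and 19.1% of all gene models. Their median log2 ratio was -0.002, beside -0.008 over all gene models. Of the 52, 8 reached the floor through the mutant alone and 3 through the heterozygote alone. Just under the floor were Hist1h1b, Hist1h3i and the plus-strand copy of Hist1h4m, each at 0.961 CPM at most. Just over it were Hist1h2bf, Hist1h2bp and Hist1h4d, each at 1.03 CPM in the mutant.

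**Figure D1:**
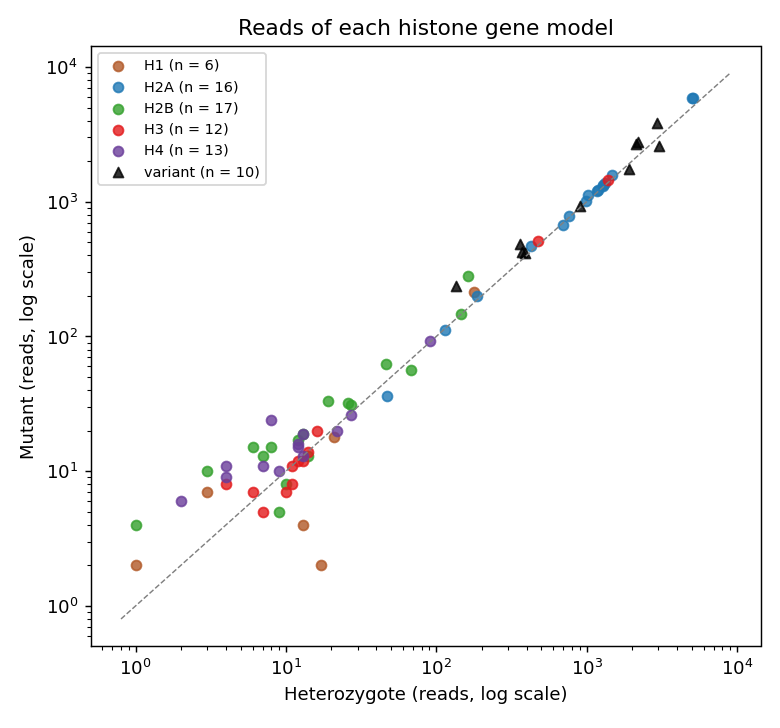
Reads of each histone gene model in the heterozygote (horizontal, log scale) and the mutant (vertical, log scale), coloured by class, with variants as triangles and a dashed line of equal reads; models without a read in a library are left out. H2A models and variants fill the upper end, while most H2B, H3 and H4 models lie under 100 reads.

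Most reads counted for clustered genes were those of H2A models. The 64 clustered models had 25107 and 27493 reads (here and below, the heterozygote is given first), a scaled ratio of 1.02 (1.0002 to 1.04). Without the top model, the plus-strand Hist1h2ao, the ratio was 1.004 (0.985 to 1.02). Of the clustered models, 42 reached the floor, with a median log2 ratio of -0.01, 19 above 0 and 23 below, where 48.8% of all gene models were above 0. H2A models took 88.1% and 87.8% of these reads. Compared per length, over models spanning under 2700 bases, the median H2A level was 157 and 150 CPM per kb (16 models). The medians of the other core histones were 1.75 and 2.34 CPM per kb for H2B (14 models), 1.67 and 1.43 for H3 (12 models) and 2.84 and 3.30 for H4 (13 models). H1 had 0.804 and 0.641 CPM per kb (5 models). The median H2A level stood above that of every other class in each library. These are levels and shares of counted reads, not of transcripts. How well each message without a poly(A) tail was recovered was not tested. A read that matches several H2A models may also have been counted more than once.

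**Figure D2:**
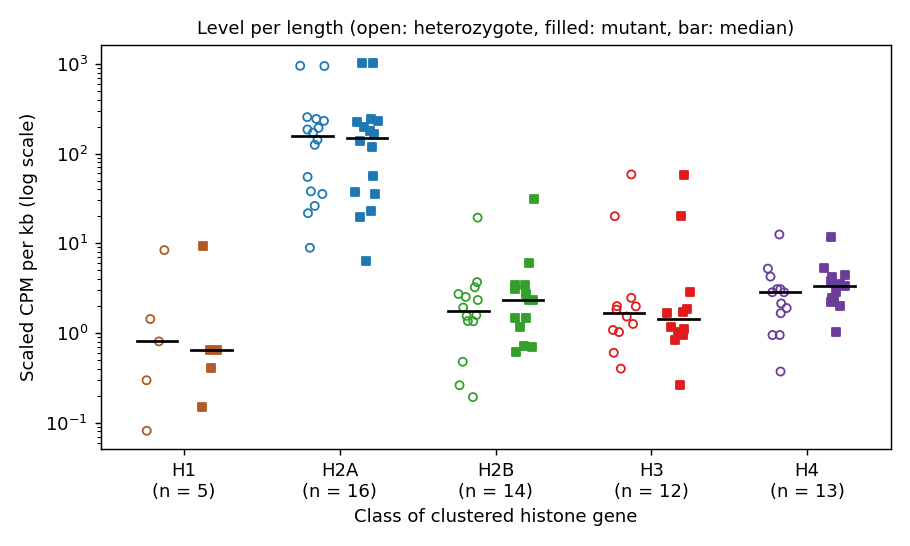
Level of clustered histone gene models under 2700 bases long, in scaled CPM per kb of model (log scale), by class; open circles are the heterozygote, filled squares the mutant, and bars the medians. The H2A models sit about the median of 157 CPM per kb in the heterozygote, and the medians of the other classes are at or under 3.30 CPM per kb in either library.

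H2A genes share most of their coding sequence. Of all stretches of 36 bases in an H2A coding sequence, a median of 86.6% (9.01% to 100%, 15 genes) also occur in a transcript of another gene, and the medians were 77.0% for H2B, 86.2% for H3, 73.7% for H4 and 14.3% for H1. Reads from 1 H2A gene can thus match several, and no source used here says how the counting split such reads. The 2 models of Hist1h2ao (chromosome 13, 21902336 to 21902728 and 21924952 to 21925344) had nearly the same counts, 5068 and 5037 reads in the control against 5845 and 5853 in the mutant, and together took 45.7% and 48.4% of H2A reads. All of the Hist1h2ao coding sequence recurs in another gene, so the 2 models are not independent measurements. Their ratios were 1.07 (1.03 to 1.11) and 1.08 (1.04 to 1.12) and their log2 ratios 0.10 and 0.11, or 0.07 and 0.08 once the trend with GC content and length was removed.

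The other 14 H2A models had ratios of 0.712 to 1.02, and of 0.887 or more apart from Hist1h2aa. Hist1h2ag (chromosome 13, 22134346 to 22134818) had 1484 and 1568 reads, Hist1h2ah 1334 and 1386, and Hist1h2ac 1280 and 1339. Each of these was higher in raw reads and lower after scaling, with ratios of 0.982 (0.914 to 1.05), 0.965 (0.895 to 1.04) and 0.972 (0.900 to 1.05). All 16 H2A models summed to a ratio of 1.01 (0.996 to 1.03). Without Hist1h2ao, the summed H2A ratio was 0.963 (0.940 to 0.988) and 12 of 14 models were below 0, while total-count scaling put the sum at 1.02. Hist3h2a, on chromosome 11, was the only H2A model with an interval below 1, at 702 and 670 reads (0.887, 0.797 to 0.987). Its model starts at the same base as that of Trim17, with 660 and 638 reads, and can share reads with it.

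H2B genes had few reads. The 17 models summed to 577 and 762 reads (1.23, 1.10 to 1.37). Much of the sum came from Hist3h2ba (chromosome 11, 58762413 to 58763032), whose promoter is shown above with 4 CCAAT boxes. It had 162 reads against 281 in the mutant, or 11.98 and 19.30 CPM (1.61, 1.32 to 1.97). Without it the H2B sum was 415 against 481 reads, a ratio of 1.08 (0.942 to 1.23). Hist1h2bc, which is also known to give polyadenylated transcripts, had 146 and 148 reads (0.942, 0.744 to 1.19), Hist2h2be 68 and 56 (0.765, 0.527 to 1.11) and Hist1h2bn 46 and 62 (1.25, 0.842 to 1.88). The Hist1h2bn model spans 83408 bases and overlaps other histone models. The remaining 13 H2B models had 1 to 27 reads in the control and 4 to 33 in the mutant, and each of their intervals held a ratio of 1.

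H2A and H2B models were also set side by side within divergent pairs. In 10 pairs the 2 models start head to head on opposite strands with 172 to 334 bases between them, so that 1 stretch of DNA lies before both. Hist1h2ag had 1484 reads in the control and its partner Hist1h2bj, across the stretch shown above, had 14; in the mutant they had 1568 and 13. Over the 10 pairs the H2A count was 2.75 to 234 times the H2B count in the heterozygote (median 58.6) and 3.59 to 120.6 times in the mutant (median 40.8). The lowest multiple was that of Hist2h2ac and Hist2h2be in both libraries. The highest was that of Hist3h2a and Hist3h2bb in the heterozygote, where Hist3h2bb had 3 reads, and that of Hist1h2ag and Hist1h2bj in the mutant. H2A was the higher partner in all 10 pairs and both libraries, and whether reads shared among H2A genes set this was not tested. The pairs hold the same counts as the classes above and are not separate evidence of the contrast.

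**Figure D3:**
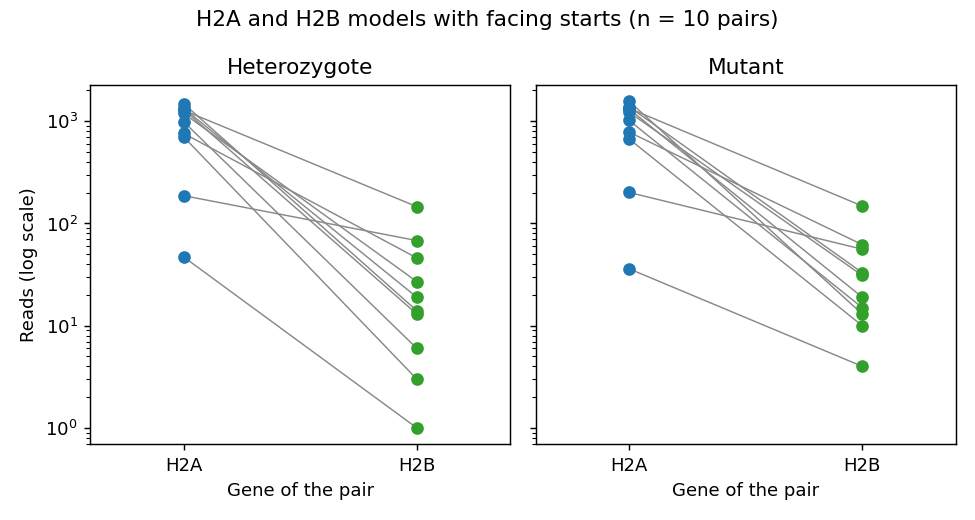
Reads (log scale) of the H2A and the H2B model in each of 10 head-to-head pairs, joined by a line, in the heterozygote (left) and the mutant (right). Every line falls from H2A to H2B in both libraries, by 2.75 to 234 times in the heterozygote.

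H3 and H4 genes, which encode the core of the nucleosome that EZH2 and other enzymes modify, had summed ratios whose intervals held 1. Most H3 reads came from 2 long models that lie beside H2A genes, and whether the H3 sum measures H3 genes alone was not tested. The 12 H3 models summed to 1959 and 2060 reads (0.977, 0.918 to 1.04). Hist1h3d had 1379 and 1445 of these and the plus-strand model of Hist2h3c1 476 and 511, with ratios of 0.974 (0.904 to 1.05) and 0.998 (0.879 to 1.13). The other 10 H3 models had 4 to 16 and 5 to 20 reads, and summed to 104 reads in each (0.929, 0.701 to 1.23). The 2 high models span 1742 and 1759 bases, while an H3 coding sequence such as that of Hist1h3a has 411. Hist1h3f, another long H3 model, spans 1848 bases and had 10 and 7 reads. Of the 36-base stretches in the longest GENCODE M21 transcripts of Hist1h3d and Hist2h3c1, 0 occur in a clustered H2A transcript. The bases spanned by the deposited models were not searched. In RefSeq, Hist1h2ad lies 847 bases from Hist1h3d and Hist2h2aa1 632 bases from Hist2h3c1, and neither of these H2A genes has a row of its own in the table; whether their reads were counted in the H3 models was not tested. The 13 H4 models summed to 224 and 272 reads (1.13, 0.942 to 1.35). Hist1h4i was highest, at 91 and 92 reads (0.939, 0.695 to 1.27), Hist1h4h had 27 and 26 (0.895, 0.502 to 1.59) and the minus-strand copy of Hist1h4m 22 and 20 (0.845, 0.437 to 1.62). Hist1h4k stood apart with 8 and 24 reads (2.79, 1.21 to 7.18); its counts are small and it reached the floor in the mutant alone. Hist1h4a, Hist1h4b and Hist1h4d, close in level, had intervals that held a ratio of 1.

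The 6 linker histone models of the cluster summed to 232 and 247 reads (0.989, 0.824 to 1.19). Hist1h1c, the most abundant, had 177 and 214 reads (1.12, 0.916 to 1.38). Hist1h1d had 17 reads against 2 in the mutant (0.109, 0.0123 to 0.461), the lowest log2 ratio of all histone models at -0.99; it reached the floor in the heterozygote alone. Hist1h1b had 13 and 4 reads, under the floor (0.286, 0.0679 to 0.925), and Hist1h1e 21 and 18 (0.796, 0.400 to 1.57). Hist1h1a had 3 and 7 reads. Without Hist1h1c the 5 H1 models summed to 55 and 33 reads, a ratio of 0.558 (0.351 to 0.874). These are few reads, Hist1h1c was left out after its values were seen, and 1 pool of each genotype was measured.

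By position, the clustered models fall into 3 stretches on chromosome 13 (Hist1), at 21807632 to 21929399, 22127035 to 22135479 and 23622919 to 24026720, and into Hist2 on chromosome 3, Hist3 on chromosome 11 and Hist4 on chromosome 6, in the coordinates of the deposited table, whose build no source used here gives. The summed ratio was 1.05 (1.02 to 1.07) in the first Hist1 stretch, which holds both Hist1h2ao models, 0.977 (0.928 to 1.03) in the second and 0.978 (0.946 to 1.01) in the third. Hist2 had 0.981 (0.909 to 1.06) and Hist3 1.03 (0.939 to 1.13). Hist4h4, the only Hist4 gene, had 4 and 9 reads. The long model BC128282 spans much of Hist1 and had 130 and 134 reads.

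Variant genes had more reads per model and ratios that lay on both sides of 1. The 12 variant models summed to 14363 and 16133 reads (1.04, 1.02 to 1.07). Of these, 10 reached the floor, with a median log2 ratio of 0.15, and 5 intervals lay above a ratio of 1 and 2 below. All gene models had 17.3% above and 19.1% below. Intervals narrow as reads rise, and these shares were not taken at matched reads, so they do not show an excess among variants. Without H1f0 the ratio of sums was 1.002 (0.977 to 1.03). The difference between variants and clustered genes was not tested.

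The replacement linker histones were higher in the mutant. H1f0 (chromosome 15, 78858642 to 78860930), which accumulates in cells that leave the cell cycle, had 2937 and 3814 reads, or 217 and 262 CPM (1.21, 1.15 to 1.27). H1fx (chromosome 6, 87930415 to 87931476), a divergent linker histone, had 136 and 235 reads, or 10.1 and 16.1 CPM (1.61, 1.29 to 1.998). Removal of the trend of log2 ratios with GC content and length took H1fx from 0.63 to 0.26 and left H1f0 at 0.28, from 0.27; the H1fx coding sequence has 68.8% GC. The oocyte gene H1foo had 1 read and 0 reads, and the testis gene H1fnt 0 in both, which allows up to 3 reads in each library.

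The genes of the H3 replacement variant had ratios on opposite sides of 1. H3f3a and H3f3b encode the same replacement histone, which is placed into chromatin outside replication. H3f3a (chromosome 1, 182732699 to 182743734) had 3022 reads against 2603 in the mutant, or 223 and 179 CPM (0.800, 0.759 to 0.844). H3f3b (chromosome 11, 115883275 to 115885818) had 2201 and 2798 reads, or 163 and 192 CPM (1.18, 1.12 to 1.25). With the GC trend removed, the log2 ratio of H3f3a went from -0.32 to -0.17 and that of H3f3b from 0.24 to 0.40. H3f3a was the higher of the pair in reads in the heterozygote, and H3f3b in the mutant. Their sum was 5223 and 5401 reads, closer to equal than either gene (0.961, 0.925 to 0.998), and above 1 under total-count scaling (1.02). Their promoters, shown above, differ: that of H3f3b holds 4 CCAAT boxes, a TATA box and an octamer, and that of H3f3a 1 CCAAT box and an H1 box. The coding sequence of H3f3a shares 97.9% of its 36-base stretches with other genes and that of H3f3b 61.2%. A model on chromosome 4 described as similar to H3f3b, LOC667250, had 1046 and 914 reads (0.812, 0.742 to 0.888), close to the values of the row named H3f3b on chromosome 1, and can share reads with H3f3a.

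Among H2A variants, H2afx (chromosome 9, 44142798 to 44144156), which is phosphorylated at DNA breaks, had 2122 and 2678 reads (1.17, 1.11 to 1.24), and H2afj 359 and 485 (1.26, 1.09 to 1.44). H2afz (chromosome 3, 137527563 to 137529886), which encodes H2A.Z, found at promoters, was lower in the mutant at 1918 and 1745 reads (0.845, 0.792 to 0.902), while H2afv, its paralog, had 902 and 930 (0.958, 0.873 to 1.05). The macroH2A genes, whose proteins carry a large extra domain, had 391 and 420 reads for H2afy (0.998, 0.868 to 1.15) and 374 and 425 for H2afy2 (1.06, 0.917 to 1.22). With the GC trend removed, the log2 ratio of H2afx went from 0.23 to 0.07, that of H2afz from -0.24 to -0.06 and that of H2afj from 0.32 to 0.29. All coding 36-base stretches of H2afz recur in other genes of the annotation.

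**Figure D4:**
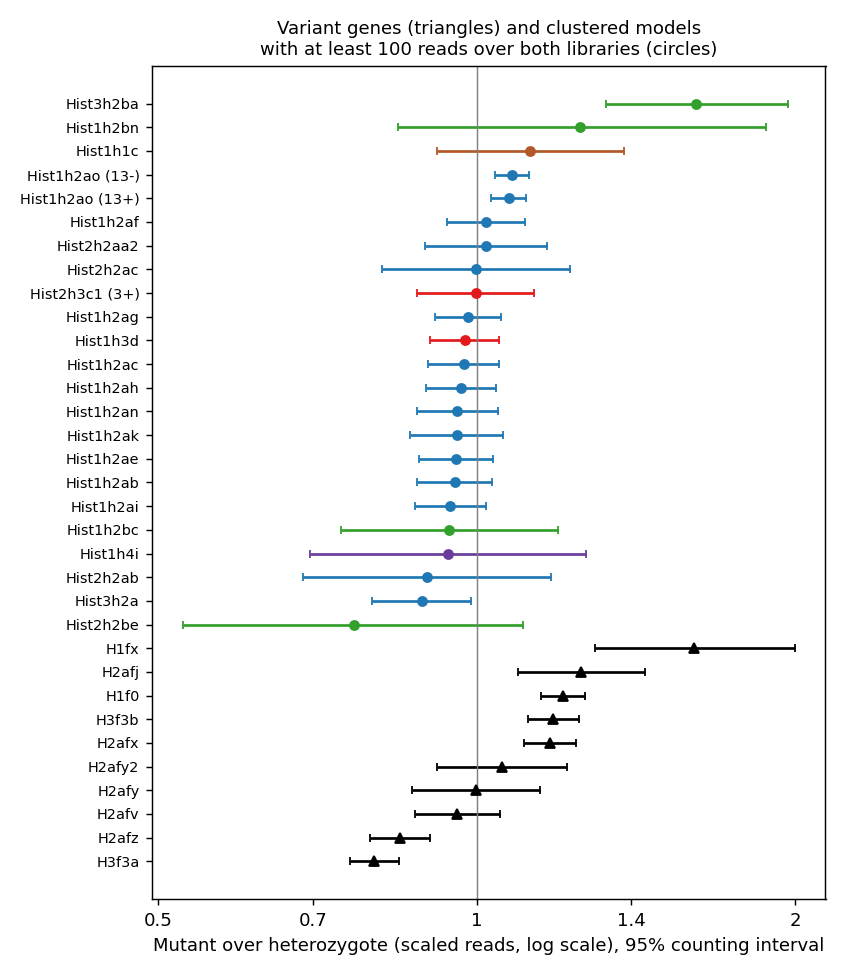
Ratio of scaled reads, mutant over heterozygote (log scale), with the 95% counting interval, for the variant genes at or above 1 CPM (triangles) and the clustered models with at least 100 reads over both libraries (circles, coloured by class as in the plot of reads). The variants reach from 0.800 for H3f3a to 1.61 for H1fx, while most H2A models lie just under 1 and Hist3h2ba stands at 1.61.

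Rows whose symbol did not match their place were kept out of these counts. The row named H2afz on chromosome 11 has the same start and end as H2afv, with 992 and 1053 reads (0.986, 0.904 to 1.08). The row named H3f3b on chromosome 1 lies inside H3f3a, with 1027 and 889 (0.804, 0.734 to 0.881), and the row named H1f0 on chromosome 9 lies inside Icam1, with 35 and 29 (0.770, 0.454 to 1.30). Summing rows by symbol would have joined H3f3a reads to H3f3b, which have ratios on opposite sides of 1.

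Genes of germ cells were near 0 apart from one. Hist1h2aa, known from testis, had 47 and 36 reads (0.712, 0.448 to 1.12), against 1 and 4 for its divergent partner Hist1h2ba. Its coding sequence shares 9.01% of its 36-base stretches with other genes, and whether its reads came from those was not tested. Hist1h1t had 1 and 2 reads. The 3 clustered genes listed as giving polyadenylated transcripts, Hist1h1c, Hist1h2bc and Hist2h2be, summed to 391 and 418 reads (0.993, 0.863 to 1.14).

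Genes that process and place histones differed by less than 2-fold in every case. Of 16 genes of histone gene transcription and 3′ end processing, 11 had log2 ratios below 0, with a median of -0.11. The counting interval lay below 1 for 4 and above for 3. Over all gene models at the floor, 48.8% were above 0, and 17.3% of intervals lay above 1 and 19.1% below. These shares, not matched for reads, stand beside the counts of the chaperone lists below too. Slbp, which binds the stem-loop, had 487 and 473 reads (0.902, 0.794 to 1.03), and Npat, which activates histone genes in S phase, 538 and 517 (0.893, 0.790 to 1.01). Srrt, a partner of the cap-binding complex, had 1502 and 1758 reads (1.09, 1.01 to 1.17). Sympk, the scaffold of the cleavage complex, had 747 and 976 (1.21, 1.10 to 1.34).

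Of 11 chaperones of replication-coupled deposition, 9 were below 0, with a median of -0.13 and 5 intervals below 1 and 0 above. The most abundant was Nap1l1, which carries H2A and H2B, at 4818 and 4403 reads (0.849, 0.815 to 0.885). Nasp, a chaperone of H3 and H4, had 2458 and 2290 (0.866, 0.817 to 0.917). Chaperones and exchangers of variants had a median of 0.02, with 7 of 11 above 0: Hira, which places that H3 variant, had 459 and 522 reads (1.06, 0.930 to 1.20) and Anp32e, which removes H2A.Z, 3232 and 2894 (0.832, 0.791 to 0.875).

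Genes of S phase, when clustered histones are made, had a median of -0.11, with 16 of 20 below 0 and 9 intervals below 1 against 1 above. Genes of mitosis had a median of -0.15, with 7 of 10 below 0. Over all gene models at the floor, 48.8% were above 0, and 17.3% of intervals lay above 1 and 19.1% below, not matched for reads. Pcna had 1824 and 1628 reads (0.829, 0.775 to 0.887) and Rrm2, with an interval above 1, 2359 and 2881 (1.13, 1.07 to 1.20). The summed ratio was 0.912 (0.895 to 0.929) for S phase genes, beside 1.02 for clustered histone genes. With the GC trend removed, the medians were -0.04 for transcription and processing, -0.03 for each group of chaperones, -0.09 for S phase and -0.08 for mitosis. Under total-count scaling, which adds 0.09 to every log2 ratio before the pseudocount, these sums were 0.969 and 1.08. Cenpa, the centromeric H3 variant outside the name rule, had 1261 and 1404 reads (1.03, 0.958 to 1.12).

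**Figure D5:**
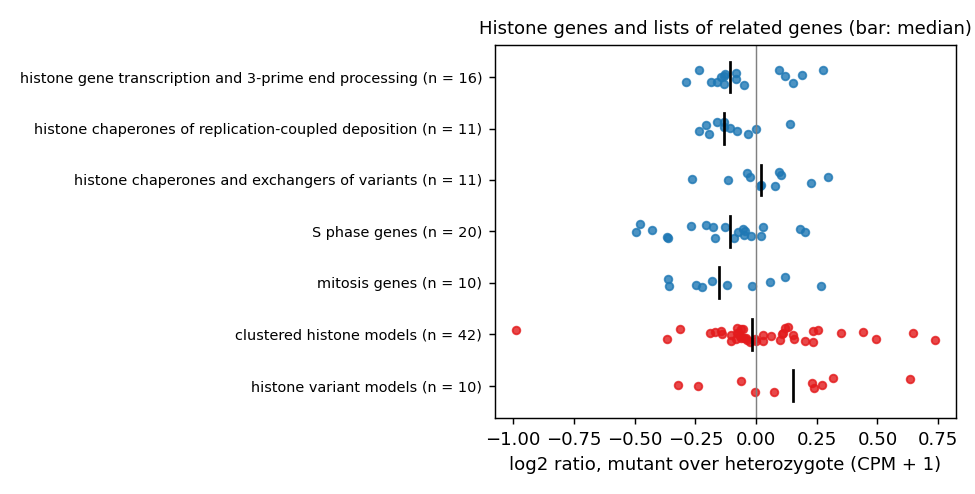
Log2 ratio of mutant over heterozygote (CPM plus 1) for each gene at or above 1 CPM in 5 lists of related genes (blue) and for clustered and variant histone models (red), with the median of each as a bar. Medians run from -0.15 for mitosis genes to 0.15 for variant histone models, and every point lies within 1 log2 unit of 0.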

How the data were processed

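RNA sequencing reads of 2 libraries were used, 1 per genotype. The deposited raw read counts per gene model, and the deposited CPM (reads per 1000000 of the library's own total), come from the authors, per the file headers. The fold the authors deposited divides heterozygote by mutant and is blank where both have under 10 reads; it and the authors' deposited p-value, whose test is not named, were not used. Aligner, counter, use of strand and build were not given in the sources used here; the library kit is for full-length transcripts from total RNA, per the labels' protocols. The tables of single samples differed from the joint table in 0 rows.

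Rows of a symbol were kept apart, since they are different loci. TMM factors from all 29595 models were 0.970 (heterozygote) and 1.03 (mutant) (edgeR 4.0.16, R 4.3.3; 30% of ratios and 5% of levels trimmed). Ratios carry exact conditional Poisson 95% intervals (SciPy 1.17.1). These cover counting error only, since PCR copies are counted as reads and 8 hearts make up each pool, and reads shared by several models widen the true error. Log2 ratios use a pseudocount of 1 CPM and understate changes of low genes; the floor was 1 CPM in a library. The code was tested on simulated counts. The longest GENCODE M21 transcript gave GC and length; stem-loops and shared 36-base stretches came from its transcripts, and promoters and synonyms from RefSeq (GRCm38.p6). Of 142 list entries, 7 were not matched and 8 were matched by a synonym. Start positions have 1 added, since the table counts from 0.

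The members and lists were chosen with earlier results of these data known. Genes named are all members at least 2-fold apart, the 4 highest per class, all variants at or above the floor, members beside the floor, germ cell genes, and from other lists the highest or those at least 2-fold apart; Hist1h1a, Hist1h1b and further genes of lists were named after their values were seen. Alternatives tried were 3 other scalings, pseudocounts of 0.1 and 5 CPM, other floors, subtraction of a quadratic trend (GC and log length, genes of at least 5 CPM), overlapping models left out and the top member left out.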

Additional observations from a re-analysis of the deposited data

How the results depend on the processing

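Among the named models, sign changes under the alternatives fell on values close to 0. Removal of the GC trend also moved larger log2 ratios. H1fx went from 0.63 to 0.26, H2afx from 0.23 to 0.07 and H2afz from -0.24 to -0.06. H3f3a went from -0.32 to -0.17 and H3f3b from 0.24 to 0.40, while H1f0 went from 0.27 to 0.28. The median log2 ratio of clustered genes was -0.01 as reported, 0.0703 under total-count scaling, 0.00356 under median-centred scaling, 0.0719 with the GC trend removed and 0.11 without H2A. Of the clustered models at the floor, 8 reached it through the mutant alone and 3 through the heterozygote alone. Passing through 1 library alone fixes the sign, so the median without H2A (26 models) cannot show a shift. Their ratio of summed reads was 1.02 as reported, 1.08 under total-count scaling, 1.04 without H2A, 1.004 with the top member left out and 0.993 with overlapping models left out. The median of variant genes was 0.15 as reported, 0.25 with overlapping models left out and -0.00265 with the 3 rows that lie on another gene kept. It was 0.0759 with the GC trend removed, 0.0758 with no filter on low values and 0.0806 with rows of a symbol summed. Their ratio of sums was 1.04 as reported, 1.11 under total-count scaling, 1.13 with overlapping models left out and 1.002 without H1f0, the member with the most reads. With a pseudocount of 0.1 CPM, 2 models (Hist1h4k and Hist1h2bp) were at least 2-fold higher and 1 (Hist1h1d) at least 2-fold lower, against 0 and 0 as reported and under the other alternatives tried. The cause of these shifts was not tested beyond what each alternative leaves out. Leaving out H2A, summing rows by symbol and keeping the rows on another gene were chosen after seeing the data. Of 30 named models, 7 changed sign under total-count scaling and 7 with the GC trend removed, among them Hist1h2bc, Hist1h3d and H2afv under both. No paired analysis was possible because each group has 1 library. Depth limits the H1, H2B, H3 and H4 models, most of which had under 30 reads.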
